A study of Homo sapiens with 20 samples.

Results

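The genes described here code for the protein part of the mitochondrial ribosome. They were found by symbol in the platform's annotation table (MRPL or MRPS followed by a digit), and each was read through 1 probe set, the one with the highest mean over the arrays. The rule gave 51 of 11963 genes, 31 of the large and 20 of the small subunit. Of these, 49 were bright enough to be tested; MRPL41 and MRPS18C were below the filter on low signals. The arrays came from 10 established lines of T-cell acute lymphoblastic leukemia (T-ALL), all with activating NOTCH1 mutations: RPMI8402, HPB-ALL, DND41, PF382, MOLT3, KOPTK1, ALL-SIL, CUTLL1, P12-ICHIKAWA and CCRF-CEM. Every line had 1 array for 72 h in vehicle (DMSO) and 1 for 72 h in 100 nM CompE, an inhibitor of the gamma-secretase that releases active NOTCH. For MOLT3, CCRF-CEM and P12-ICHIKAWA, the medium written on the DMSO label is not that on the CompE label and carries the name of a cell line; the labels do not settle which medium was used.

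Mitochondria keep a ribosome of their own, which translates the few proteins encoded in mitochondrial DNA, all of them subunits of the respiratory chain and the ATP synthase. Its ribosomal RNAs come from mitochondrial DNA, but every one of its proteins is encoded in the nucleus, made in the cytosol and imported. Some of these proteins are counterparts of bacterial ribosomal proteins, and others are found in mitochondria only. The large subunit joins amino acids and the small subunit reads the messenger RNA.

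Values are MAS5 signals, a linear measure of array brightness with no unit, scaled by the authors to 1 mean per array. The median signal ran from 54.8 to 74.9 over the 20 arrays. Of 8 T-lineage markers on the arrays, all were above the filter (summed signal 8357 to 19039 in DMSO and 8383 to 20906 in CompE), and 2 of them were called. Among all tested genes 3.24% were called lower and 3.94% higher. Each list of markers for B cells (4 on the arrays), myeloid (6), erythroid (2) and epithelial cells (5) and fibroblasts (5) was summed separately. The highest sum of any of these lists on any array was 235 in DMSO and 269 in CompE, both for B cells. The markers above the filter in these lists were CD79B, CD22, KRT8, COL1A1 and COL1A2, and 0 of these 5 were called. As a sign of RNA quality, the 3' over 5' probe signal of ACTB, higher in degraded RNA, stood at 3.32 (DMSO) and 9.76 (CompE) for KOPTK1, with the other arrays at 1.02 to 1.99. On whole cultures, fewer cells of a kind and less RNA per cell cannot be told apart.

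Under CompE many of the mitochondrial ribosomal protein genes were lower, by modest amounts. Of 49 tested, 19 fell and 0 rose (limma with cell line as a block, Benjamini-Hochberg adjusted p below 0.05 over 7695 genes), against 3.24% of all tested genes lower and 3.94% higher (249 and 303 genes, or 340 and 116 with arrays centred on their medians, where 21 members fell). The mean change was below 0 for 46 of the 49, against 41.1% of all tested genes. Their median change was -0.30 on the log2(signal + 16) scale, a ratio of 0.813, and the median over all tested genes was 0.04. The called changes ran from -0.77 for MRPL12 to -0.32 for MRPS30. Among the 30 members not called, 27 had changes below 0, and these 30 ran from -0.40 for MRPS12 to 0.18 for MRPL52, with a median of -0.17.

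**Figure D1:**
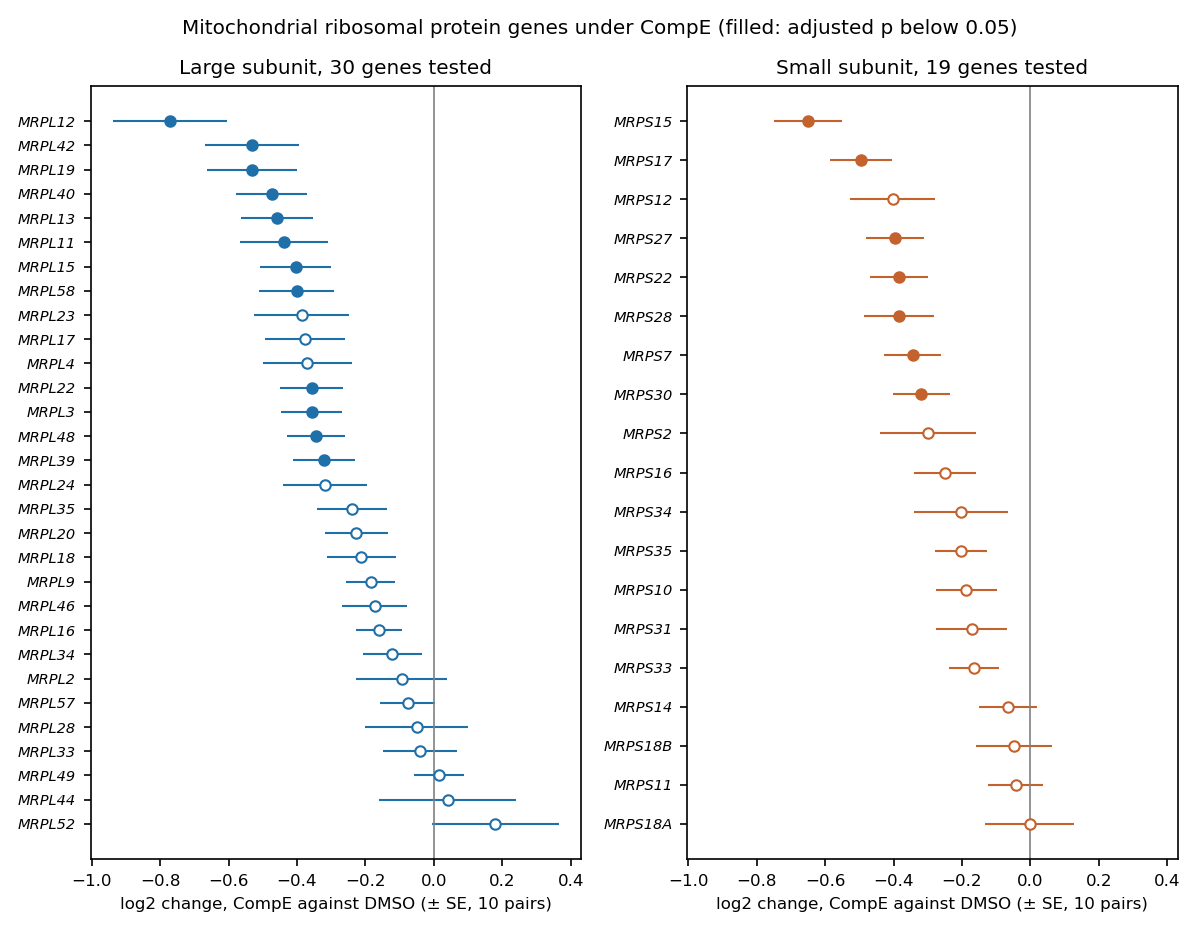
Log2 change under CompE (horizontal axis, mean of 10 paired lines, bars are the standard error) of the 30 large and 19 small subunit genes tested, ordered by change. Filled points passed the adjusted threshold: 12 in the large and 7 in the small subunit, all to the left of 0.

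The stretches before the start of 5 of these genes show what lies upstream of them. They are those of MRPS15 and MRPL12, with the smallest adjusted p in their subunits, and of MRPL40, MRPS22 and MRPL22. MRPL40 and MRPS22 were also called in each fit that left out a line, and their stretches hold a marked motif. MRPS17 and MRPS27 were called in each of those fits too, but hold none of the marked motifs and are not shown. Among 16 called members with a sequence at hand, MRPL22 is the 1 with the E-box letters CACGTG, which MYC and related factors bind. Each line gives the 250 bases before a RefSeq start (GRCh38.p14), 5′ to 3′ in the direction of the gene. Capitals mark 3 motifs, on either strand. They are the E-box CACGTG, the core CCGGAAG that ETS factors such as GABPA bind, and the NRF1 site, which reads GCGCA followed by any base and then by the letters GCGC.
MRPS15 (chr1:36464385-36464634, minus strand), with none of the 3 motifs
MRPS15: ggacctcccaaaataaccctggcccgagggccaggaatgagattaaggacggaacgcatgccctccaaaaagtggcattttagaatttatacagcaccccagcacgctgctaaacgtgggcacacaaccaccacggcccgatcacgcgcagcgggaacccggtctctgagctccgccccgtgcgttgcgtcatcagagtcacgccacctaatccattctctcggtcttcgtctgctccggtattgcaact
MRPL12 (chr17:81703117-81703366, plus strand), with none
MRPL12: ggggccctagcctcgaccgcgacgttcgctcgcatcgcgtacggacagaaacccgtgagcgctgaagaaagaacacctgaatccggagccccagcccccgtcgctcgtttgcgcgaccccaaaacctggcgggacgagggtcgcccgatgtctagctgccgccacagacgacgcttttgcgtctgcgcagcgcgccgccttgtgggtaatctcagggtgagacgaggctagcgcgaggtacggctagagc
MRPS22 (chr3:139343744-139343993, plus strand; 1 of several starts), with CCGGAAG on both strands, 87 and 79 bases before the start
MRPS22: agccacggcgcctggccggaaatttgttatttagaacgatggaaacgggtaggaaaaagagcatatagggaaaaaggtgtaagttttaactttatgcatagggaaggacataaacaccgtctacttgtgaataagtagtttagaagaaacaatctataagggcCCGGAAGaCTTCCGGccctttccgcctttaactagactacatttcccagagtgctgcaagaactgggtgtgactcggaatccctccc
MRPL40 (chr22:19432295-19432544, plus strand), with CCGGAAG 11 bases before the start
MRPL40: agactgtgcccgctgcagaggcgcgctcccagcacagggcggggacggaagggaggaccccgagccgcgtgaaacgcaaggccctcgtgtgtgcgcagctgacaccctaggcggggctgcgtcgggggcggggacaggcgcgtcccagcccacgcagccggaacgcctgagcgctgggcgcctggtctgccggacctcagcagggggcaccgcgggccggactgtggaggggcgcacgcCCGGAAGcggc
MRPL22 (chr5:154940823-154941072, plus strand), with CACGTG 176 bases before the start
MRPL22: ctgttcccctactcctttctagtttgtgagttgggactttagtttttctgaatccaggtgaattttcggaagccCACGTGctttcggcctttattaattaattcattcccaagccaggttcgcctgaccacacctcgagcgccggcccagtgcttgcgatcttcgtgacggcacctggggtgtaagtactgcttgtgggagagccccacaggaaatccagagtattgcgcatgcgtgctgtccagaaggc

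Windows from 250 bases before to 50 after a start were at hand for 45 of the 51 genes. CCGGAAG stood in a window of 19 of the 45 (42.2%), against 23.4% of the 6413 tested genes with a window and 12.2% of all 27305 genes in the table. It was in 5 of 16 called members and in 13 of 27 tested members not called. CACGTG was in 5 of the 45 (11.1%), against 13.5% of tested genes, and in 1 of the 16 called members. The NRF1 letters were in 4 of the 45 (8.89%), against 14.3%, and in 0 of the 16 called members. Over all genes in the table the shares were 8.77% for CACGTG and 6.98% for the NRF1 letters. The shares in the family, from 5 and 4 genes, lay between those of the whole table and of tested genes. Counts this small cannot show a difference from either, and none was tested. None of the 3 motifs contains another. These are counts of letters, not of bound sites.

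In the large subunit the change of MRPL12 was the most negative of the family. MRPL12 is the stalk protein of the L7/L12 type and has also been described as a partner of the mitochondrial RNA polymerase. Its signal on the DMSO arrays ran from 67.3 in KOPTK1 through a median of 232 to 420 in ALL-SIL, and on the CompE arrays from 80.3 in CUTLL1 through 106 to 239 in ALL-SIL. It was lower under CompE in 9 of 10 lines and higher in KOPTK1, whose DMSO array was the dimmest of all; the groups overlapped. The gene fell by 0.77 ± 0.167 (SE, n = 10 pairs, limma adjusted p = 0.016), with changes from -1.39 in RPMI8402 to 0.64 in KOPTK1.

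MRPL40, which has no bacterial counterpart, read from 366 through 547 to 959 in DMSO and from 234 through 359 to 768 in CompE. CCRF-CEM was the brightest line in both groups, and P12-ICHIKAWA was the 1 line where the gene was higher under CompE, by 0.25. The gene fell by 0.47 ± 0.104 (limma adjusted p = 0.0169).

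MRPL13, the counterpart of bacterial L13, read from 565 through 980 to 1368 in DMSO and from 394 through 654 to 1145 in CompE. It was lower in all 10 lines, from -0.04 in CCRF-CEM to -1.14 in KOPTK1. The fall was 0.46 ± 0.105 (limma adjusted p = 0.0201). MRPL19, the counterpart of L19, read from 187 through 270 to 576 in DMSO and from 96.5 through 198 to 564 in CompE. It too was lower in all 10 lines, by as little as 0.03 in CCRF-CEM, where it was brightest in both groups, and by 1.43 in RPMI8402. It fell by 0.53 ± 0.131 (limma adjusted p = 0.0257).

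MRPL48, a mitochondria-specific protein, read from 596 through 997 to 1157 in DMSO and from 577 through 709.5 to 1030 in CompE. PF382 was the dimmest line in both groups. The change was -0.34 ± 0.086 (limma adjusted p = 0.0271), a fall seen in 9 lines. MRPL3, counterpart of L3, a protein that reaches toward the peptidyl transferase centre, read from 1572 through 1878 to 2848 in DMSO and from 989 through 1510 to 2562 in CompE. In DMSO the line CUTLL1 was dimmest, and in CompE it was KOPTK1. MRPL3 fell by 0.36 ± 0.090 (limma adjusted p = 0.0271), and was higher under CompE in P12-ICHIKAWA alone.

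The other 6 large subunit genes that fell were MRPL42 (-0.53), MRPL11 (-0.44), MRPL15 (-0.40), MRPL58 (-0.40), MRPL22 (-0.36) and MRPL39 (-0.32), with limma adjusted p from 0.0295 to 0.048. MRPL11 sits at the base of the stalk that carries MRPL12. MRPL58, also called ICT1, can release peptides from stalled ribosomes. MRPL42 had the most negative change of any member in a single line, from a signal of 1239 in DMSO to 383 in CompE in KOPTK1, a change of -1.65.

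In the small subunit MRPS15 had the smallest adjusted p of the family. Its bacterial counterpart, S15, binds ribosomal RNA early in assembly. MRPS15 read from 307 in KOPTK1 through 622 to 927 in CCRF-CEM on the DMSO arrays, and from 137 through 371 to 703 in the same lines under CompE. The signal was lower under CompE in all 10 lines, by 0.12 in P12-ICHIKAWA and by 1.08 in KOPTK1. It fell by 0.65 ± 0.0997 (limma adjusted p = 0.00448).

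MRPS17, counterpart of S17, read from 397 through 515 to 989 in DMSO and from 233 through 361 to 721 in CompE. CCRF-CEM stood above the other lines in both groups, and all 10 lines were lower under CompE. The fall was 0.50 ± 0.090 (limma adjusted p = 0.00887). MRPS27, a pentatricopeptide-repeat protein without a bacterial counterpart, read from 358 through 604.5 to 887 in DMSO and from 284 through 438 to 602 in CompE. KOPTK1 was its dimmest and RPMI8402 its brightest line in both groups. It fell by 0.40 ± 0.084 (limma adjusted p = 0.015), in all 10 lines.

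MRPS22, mutated in an inherited deficiency of oxidative phosphorylation, read from 600 through 834 to 1044 in DMSO and from 508 through 662 to 902 in CompE. All 10 lines were lower under CompE, and DND41, at -0.93, was apart from the others. The gene fell by 0.38 ± 0.085 (limma adjusted p = 0.0169). MRPS7, whose counterpart S7 starts assembly of the head of the subunit, read from 240 through 374 to 673 in DMSO and from 201 through 303 to 461 in CompE. KOPTK1 was dimmest and ALL-SIL brightest in both groups. It fell by 0.34 ± 0.083 (limma adjusted p = 0.0248), in all 10 lines.

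MRPS30 is small-subunit by name, but in structures of the mammalian ribosome it lies in the large subunit. It read from 380 through 674 to 1456 in DMSO and from 363 through 495 to 1284 in CompE. ALL-SIL was dimmest and CCRF-CEM brightest in both groups. The gene fell by 0.32 ± 0.084 (limma adjusted p = 0.0334), in all 10 lines, while its second, dimmer probe set changed by -0.07. The other small subunit gene that fell was MRPS28 (-0.38 ± 0.103, limma adjusted p = 0.0365).

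**Figure D2:**
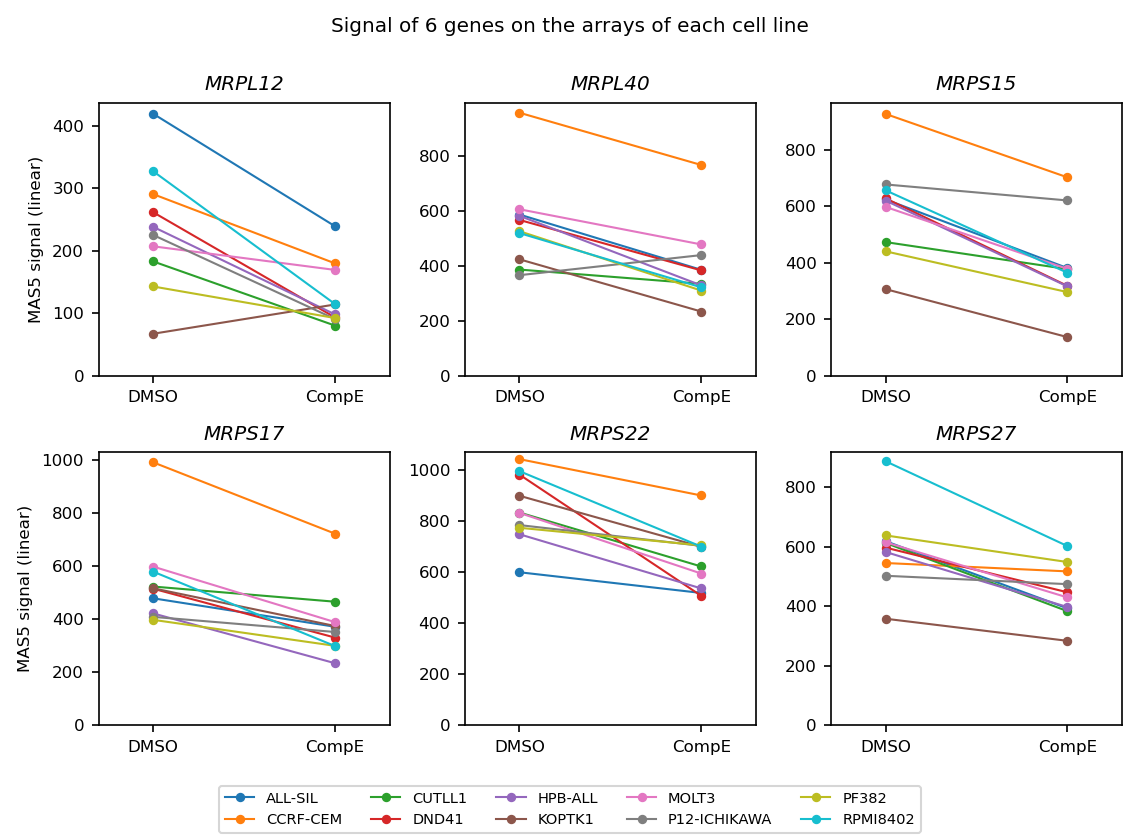
MAS5 signal (vertical axis, linear, from 0) of MRPL12, MRPL40, MRPS15, MRPS17, MRPS22 and MRPS27 on the DMSO and CompE arrays, a line per cell line. These are the 6 members called in all 10 fits with a line left out; MRPS15, MRPS17, MRPS22 and MRPS27 go down in all 10 lines, MRPL12 goes up in KOPTK1 and MRPL40 in P12-ICHIKAWA.

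The DMSO and CompE ranges of all 51 genes overlapped; the tests rest on the difference within each line. In all 10 lines, 11 of the 49 tested members were lower under CompE, against 1.51% of all tested genes. At least 8 lines were lower for 31 of the 49, against 12.9% of all tested genes. The fewest was 3 lines, for MRPS18B.

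The count of calls rested on which lines were in the fit. It was 6 without HPB-ALL (1.10% of all genes lower), 7 without RPMI8402 (1.12%), 7 without DND41 (1.40%), 11 without ALL-SIL (2.31%), 12 without PF382 (154 of 7695 genes lower) and 25 without KOPTK1 (6.09%). MRPS15, MRPS17, MRPS27, MRPS22, MRPL12 and MRPL40 kept their calls whichever of the 10 lines was left out, with a highest limma adjusted p of 0.0486. Of the other 13, the call of MRPL13 was lost without RPMI8402, DND41 or HPB-ALL (adjusted p up to 0.0586) and that of MRPL19 without RPMI8402, HPB-ALL or MOLT3 (up to 0.0674). MRPL3 and MRPL22 lost theirs without ALL-SIL, RPMI8402, DND41 or HPB-ALL (up to 0.073 and 0.0742), and MRPL42 without RPMI8402, CUTLL1, DND41 or HPB-ALL (up to 0.0817). MRPL48, MRPS7, MRPS30 and MRPL15 lost theirs in 5 fits each, MRPL39 and MRPS28 in 7, MRPL58 in 8 and MRPL11 in 9, and over these genes the adjusted p reached 0.117. Without KOPTK1 all 19 calls were kept and 6 were added: MRPL23 (-0.53), MRPS12 (-0.51), MRPL4 (-0.45), MRPL17 (-0.45), MRPS2 (-0.42) and MRPL24 (-0.41), with limma adjusted p from 0.00383 to 0.0215.

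Array measures moved with treatment as well. The 10th percentile of signal, a measure of the dimmest probe sets, was 2.90 to 5.67 in DMSO and 3.08 to 8.93 in CompE, and higher under CompE in 7 of 10 lines. With it as a covariate 0 members were called by limma, and 0% of all genes. At an unadjusted limma p below 0.05, 20 of the 49 members were lower and 0 higher. Of all 7695 genes, 1089 passed that unadjusted threshold in either direction. Without MOLT3, CCRF-CEM and P12-ICHIKAWA, the lines with another medium label, 8 members were called lower, against 1.83% of all genes.

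RNA quality moved with treatment too: the log2 ACTB ratio was higher under CompE in 9 of 10 lines, by 1.56 in KOPTK1 and by at most 0.54 elsewhere. With that ratio as a covariate 10 members were called lower and 0 higher, against 2.13% of all genes lower. Among them 7 of the 19 were kept: MRPS15 (-0.55, limma adjusted p = 0.0228), MRPS17 (-0.50), MRPS27 (-0.43), MRPL12 (-1.03), MRPL11 (-0.65), MRPL58 (-0.50) and MRPS7 (-0.38). The median over the members was then -0.24. The ratio was highest on both arrays in KOPTK1, and the fit without KOPTK1 called 25.

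Some members showed no call and little change. In the large subunit the highest changes were those of MRPL52, at 0.18 ± 0.185 (limma adjusted p = 0.587), MRPL44, at 0.04 ± 0.201 (adjusted p = 0.928), and MRPL49, at 0.02 ± 0.073 (adjusted p = 0.926). MRPL52 and MRPL44, which has the fold of a ribonuclease, were dim, with DMSO medians of 42.6 and 32.8, so their changes are poorly measured; MRPL44 ran from -0.80 in ALL-SIL to 1.29 in DND41. MRPL49 was bright, at 575 through 1001 to 1224 in DMSO and 596 through 994 to 1185 in CompE, and its change stayed between -0.29 and 0.24 in every line.

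Highest in the small subunit were MRPS18A (0.00 ± 0.129, limma adjusted p = 0.994), MRPS11 (-0.04 ± 0.080, adjusted p = 0.787) and MRPS18B (-0.05 ± 0.111, adjusted p = 0.826). MRPS18A, MRPS18B and MRPS18C are relatives of bacterial S18, of which each ribosome of bacteria has a single form; MRPS18A lies in the large subunit by structure. MRPS18A read from 157 through 204 to 330 in DMSO and from 159 through 190 to 363 in CompE, with KOPTK1 lowest in DMSO and highest in CompE, at a change of 1.13. MRPS18B read from 314 through 470 to 856 in DMSO and from 281 through 509 to 686 in CompE. Both had a second probe set above the filter that was more negative, at -0.30 for MRPS18A and -0.26 for MRPS18B, each lower in 8 lines. MRPS18C was dim, with medians of 25.3 in DMSO and 20.1 in CompE, and was not tested, and neither was MRPL41, at 11.3 and 11.3.

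Probe sets differed for other members as well. The bright probe set of MRPS12 was at -0.40 ± 0.124 (limma adjusted p = 0.0584), and its other 3, with mean DMSO signals of 37.8 to 41.2, were at -0.18, -0.10 and 0.01. MRPS31 was at -0.17 and -0.30, MRPL9 at -0.18 and -0.24, and MRPS14 at -0.07 and 0.17. With the mean of all probe sets of a gene, 17 members were called lower, against 3.40% of all genes. Many of these genes have processed pseudogenes, and probe sets that also match other transcripts could mix them in; whether they did was not tested.

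Levels in DMSO differed widely between lines for some members. The widest ranges over the 10 DMSO arrays, on the log2(signal + 16) scale, were 2.39 for MRPL12, 2.32 for MRPS12, 2.23 for MRPL23 and 2.17 for MRPL24. KOPTK1 was the dimmest line for all 4. MRPS12, counterpart of the decoding-centre protein S12, read 171 there against a median of 498, MRPL23 read 297 against 984, and MRPL24 read 103 against 300. Over all 49, KOPTK1 was the dimmest DMSO array for 15 members and CUTLL1 for 9, while CCRF-CEM was the brightest for 18 and the dimmest for 0. The median member stood 0.29 above its mean over lines in CCRF-CEM and 0.22 below it in CUTLL1. These are single arrays and were not tested.

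Line by line, the median change of the 49 members was below 0 in all 10 lines, at -0.28 ± 0.152 (mean and SD over lines); with arrays centred on their medians P12-ICHIKAWA was at 0.0079 and the other lines stayed below 0. It was -0.49 in RPMI8402, -0.48 in HPB-ALL, -0.46 in DND41, -0.27 in MOLT3, -0.26 in ALL-SIL, -0.24 in KOPTK1, -0.23 in CCRF-CEM, -0.16 in CUTLL1, -0.14 in PF382 and -0.04 in P12-ICHIKAWA. The median over all tested genes stayed between -0.00 in CCRF-CEM and 0.11 in DND41. Each line is 1 array against 1, so these values have no test of their own.

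RPMI8402 had 47 of 49 members below 0 (42.8% of all tested genes), DND41 45 (41.9%), HPB-ALL 43 (45.8%) and CCRF-CEM 42 (50.5%). ALL-SIL had 40 (48.0%), MOLT3 39 (45.0%), CUTLL1 38 (48.8%), PF382 37 (47.6%), KOPTK1 30 (45.7%) and P12-ICHIKAWA 29 (45.3%). In P12-ICHIKAWA, where the share was nearest to that of all genes, MRPL12 was still at -1.18, the lowest member there. MRPL12 was also the lowest member in DND41 (-1.34), HPB-ALL (-1.16) and CUTLL1 (-1.05).

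**Figure D3:**
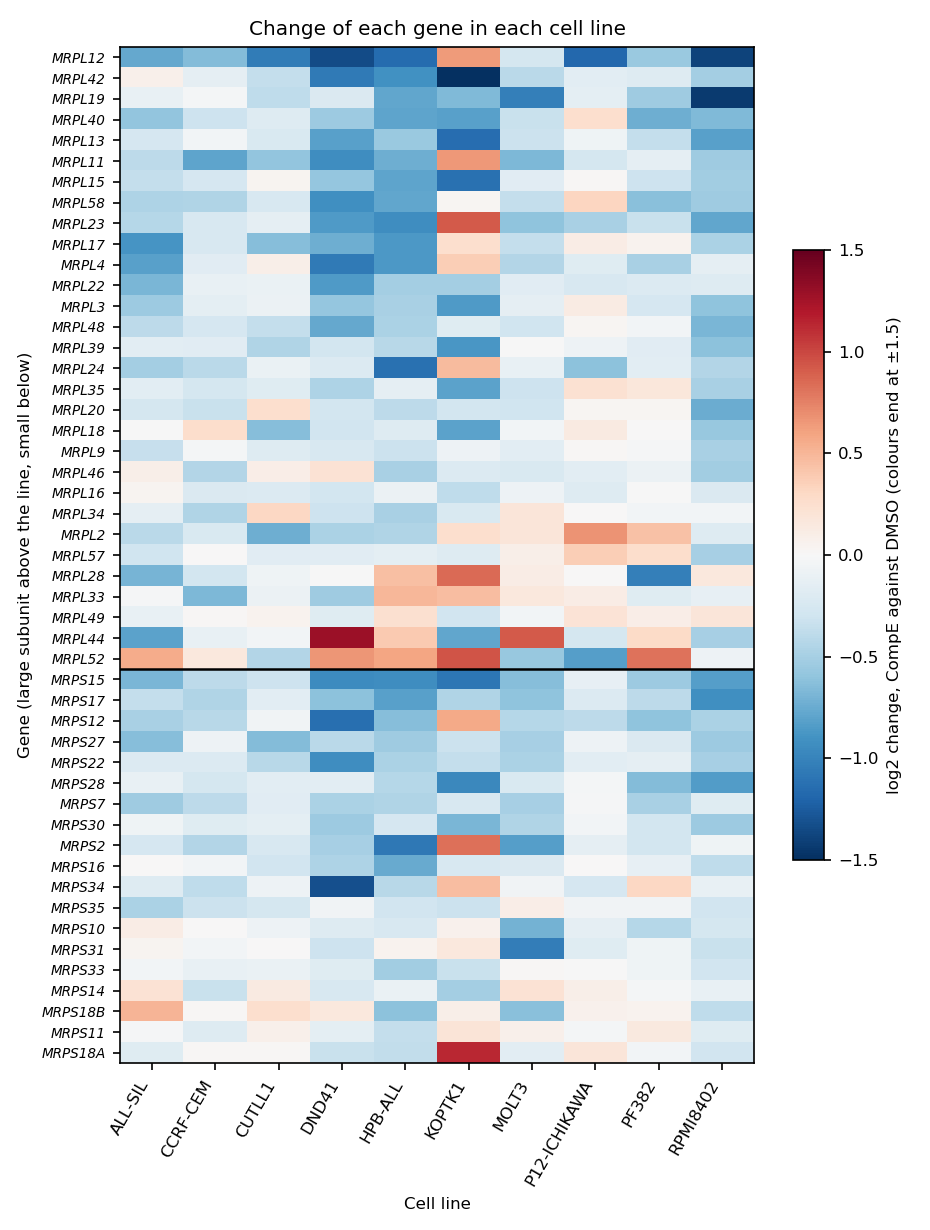
Log2 change of each of the 49 tested genes (rows, large subunit above the black line and small below, ordered by mean change) in each of the 10 lines (columns). Blue is lower and red higher under CompE, with colours ending at ±1.5; DND41, HPB-ALL and RPMI8402 are blue in most rows, and KOPTK1 mixes deep blue and red.

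KOPTK1 differed in pattern more than in median. The quartiles of its members were -0.66 and 0.26, with 15 members below -0.5 and 8 above 0.5; over all genes 18.0% were below -0.5 and 27.8% above 0.5 in that line. MRPL42 (-1.65), MRPL13 (-1.14), MRPL15 (-1.12) and MRPS15 (-1.08) were far lower there, while MRPS18A (1.13), MRPL52 (0.95), MRPL23 (0.91), MRPL28 (0.85) and MRPS2 (0.83) were higher. It held the lowest change of 14 members and the highest of 14 others. It was also the line with the high ACTB ratio on both arrays. The part of RNA quality in this spread was not tested.

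MYC, a transcription factor that drives cell growth, and C1QBP, a mitochondrial matrix protein described as binding the mitochondrial ribosome, both passed the test: MYC at -1.50 ± 0.282 (limma adjusted p = 0.0107) and C1QBP at -0.96 ± 0.145 (adjusted p = 0.00448). With the ACTB ratio as a covariate MYC was at -1.06 (limma adjusted p = 0.057) and not called, and C1QBP was at -0.72 (adjusted p = 0.0228). HES1, a direct target of NOTCH, fell by 1.71 ± 0.304 (limma adjusted p = 0.00775). Side by side with the members, MYC changed by -1.90 in RPMI8402, -1.59 in HPB-ALL, -1.85 in DND41, -0.97 in MOLT3, -1.31 in ALL-SIL, -3.85 in KOPTK1, -1.14 in CCRF-CEM, -0.45 in CUTLL1, -2.46 in PF382 and 0.53 in P12-ICHIKAWA. P12-ICHIKAWA thus had the highest change of MYC and the highest median of the members. PF382 and KOPTK1, with the most negative changes of MYC, were not among the lines with the lowest medians. C1QBP ran from -1.99 in KOPTK1 to -0.31 in P12-ICHIKAWA.

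**Figure D4:**
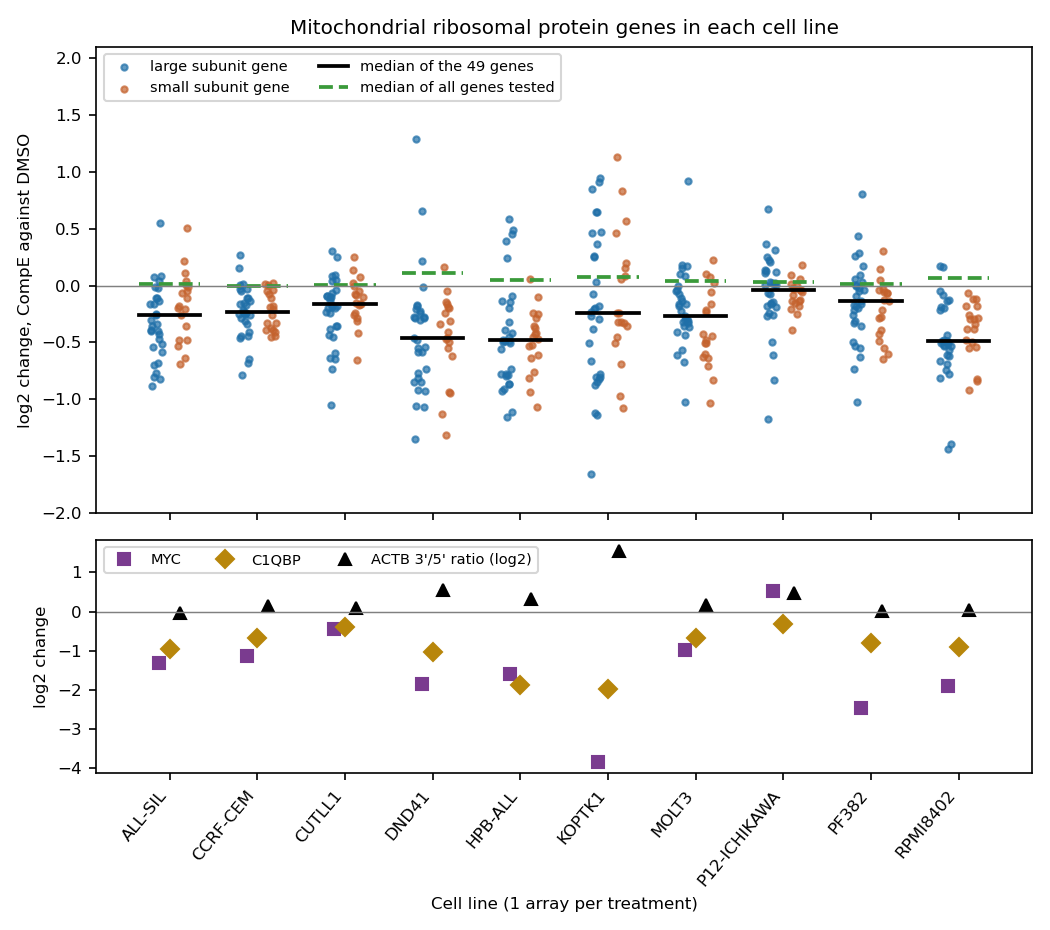
Upper panel: log2 change of the 49 members in each line (points; black bars, their median; dashed green bars, the median of all genes tested). Lower panel: log2 change of MYC, of C1QBP and of the ACTB 3' to 5' ratio in the same lines. The black bar is under the green one in all 10 lines and comes nearest to it in P12-ICHIKAWA, where MYC was at 0.53.

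The large and small subunits differed by less than the spread between lines. In the large subunit 12 of 30 tested genes fell, with a median of -0.32 over the 30 and 27 below 0. In the small subunit 7 of 19 fell, with a median of -0.25 and 19 below 0. Of all tested genes 3.24% fell, and 41.1% had a mean change below 0. The difference of the medians, large minus small, was -0.07. Over lines the same difference was -0.02 ± 0.118 (SD, n = 10) and below 0 in 7, from -0.17 in ALL-SIL to 0.25 in MOLT3. With MRPS18A and MRPS30 placed in the large subunit, the counts were 13 of 32 and 6 of 17, with medians of -0.32 and -0.25. With the ACTB ratio as a covariate the order turned, at -0.23 for the large and -0.25 for the small subunit.

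Of the 32 tested members with a bacterial counterpart, 11 fell, with a median of -0.31 and 32 below 0. Of the 17 without one, 8 fell, with a median of -0.20 and 14 below 0; the 3 above 0 were MRPL44, MRPL49 and MRPL52. Both shares of calls were above the 3.24% of all genes. Pairs of members varied together across lines more than pairs of genes at large: the median Pearson r between the changes of 2 members over the 10 lines was 0.20, and 0.01 over all pairs of tested genes. All these points share the same 20 arrays and their scaling, so this is a description.

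Among 37 tested genes whose products work with the mitochondrial ribosome or mitochondrial DNA, or belong to the ribosome under other symbols, 4 fell and 0 rose, against 3.24% of all tested genes lower. Of 3 tested ribosome proteins that carry other symbols, GADD45GIP1 fell by 0.41 ± 0.118 (limma adjusted p = 0.0466), in all 10 lines, and DAP3 (0.06) and PTCD3 (-0.03), both of the small subunit, were not called. The call of GADD45GIP1 held in the fit without KOPTK1 and was lost in the 9 fits without another line, and averaging its probe sets gave a change of 0.06. Of 9 tested genes listed under mitochondrial translation factors, not all of them translation factors in the strict sense, 2 fell and 0 rose. LRPPRC, which stabilizes mitochondrial messenger RNAs, fell by 0.36 ± 0.095 (limma adjusted p = 0.0347), and the elongation factor TUFM by 0.27 ± 0.078 (adjusted p = 0.0466). GUF1 was at -0.20. Calls of both held in 2 of the 10 fits without a line. The median of these 9 was -0.05.

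None of 14 mitoribosome assembly factors was called (median -0.05), against 3.24% of all tested genes lower and 3.94% higher. With 14 genes, 0 calls is near these shares. METTL17 was at 0.18, MTERF3 at -0.15 and NGRN at 0.11. By limma the smallest adjusted p of the 14 was 0.186. Unadjusted, 1 of the 14 was below 0.05, METTL17, higher under CompE, against 1934 of all 7695 genes in either direction. Of 11 genes of mitochondrial transcription and DNA maintenance 1 fell and 0 rose, too few genes to set apart from the same shares. PPRC1, a coactivator of nuclear genes for mitochondria, fell by 0.42 ± 0.114 (limma adjusted p = 0.0383), a call held in 2 of the 10 fits. SSBP1, which binds single-stranded mitochondrial DNA, was at -0.26 (adjusted p = 0.0552) and the helicase TWNK at -0.24 (adjusted p = 0.151).

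Set beside the ribosome of the cytosol, 0 of 54 tested cytosolic ribosomal protein genes were called in either direction, and their median was 0.13, or -0.01 with quantile normalization (1 called lower). The cytosolic proteins were at -0.21 in DND41 and 0.44 in MOLT3 by their median, a wider span over lines than that of the mitochondrial ones. Of 64 genes with symbols of oxidative phosphorylation subunits, 3 fell (CYC1, ATP5MC1 and NDUFS4) and 0 rose, with a median of -0.10 and 51 below 0, against 3.24% of all tested genes lower. The 64 include SDHA, SDHC and SDHD of complex II, which holds no product of the mitochondrial ribosome, and ATP5MC2P1, a pseudogene. Without KOPTK1, 13 fell and 1 rose, against 6.09% of all genes lower and 7.30% higher. These lists are described by counts and medians only, and the differences between them were not tested.

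**Figure D5:**
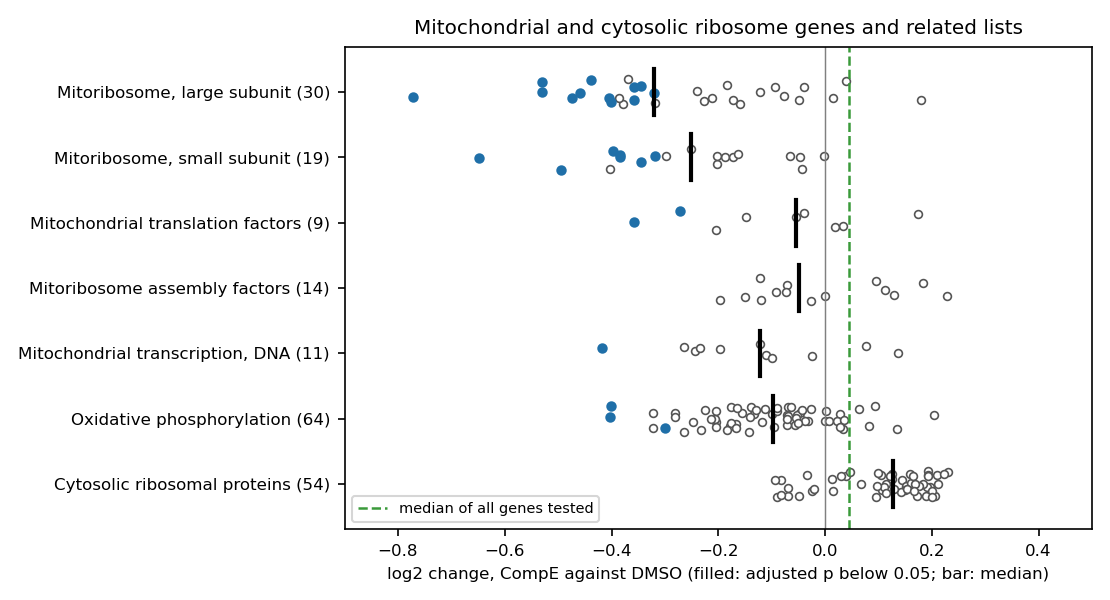
Log2 change under CompE of the tested genes of 7 groups (points, 1 per gene; filled where the adjusted p was below 0.05; black bars, medians; dashed line, median of all tested genes at 0.04). Both mitoribosome subunits lie to the left, with medians of -0.32 and -0.25, and the cytosolic ribosomal proteins lie around 0.13 with none filled.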

How the data were processed

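RNA of 10 T-ALL lines, 1 DMSO and 1 CompE array each, was read as the signal intensities deposited by the authors, made with MAS5 per the submitters' processing notes; its version is not given in the sources used here. Trimmed means lay between 249.8 and 250.0 on the 20 arrays, so the authors scaled each array; a common scale cannot show a change in total RNA per cell. Of 22277 probe sets, 62 controls were left out; 19064 had 1 gene, 1043 several and 2108 none in the platform table, and only the first were named. Named genes dimmer than the 40th percentile of all probe sets other than controls (mean log2 signal, about 32.5 as a signal) were dropped and 7695 stayed. Log2(signal + 16) was fitted with limma 3.58.1 under R 4.3.3, with the line as a block, a trend with intensity and Benjamini-Hochberg adjustment over all 7695 genes at 0.05, two-sided. Changes on that scale understate the fold of dim genes. The pairing comes from the labels, and for 10 of 10 CompE arrays the highest correlation was with that line's DMSO array. With the line as a block, p-values rest on how far the change within a line varied over the 10 lines, not on differences in level between lines. The labels do not say whether a line's arrays came from separate cultures, so that spread also holds the noise of single arrays and any of cultures. The number of arrays limits precision. The code was tested on simulated data. Members and lists were chosen with earlier results of these data known, and no list was tested as a set. Named members are the 6 of each subunit with the smallest adjusted p, the 3 with the highest change, the 4 with the widest DMSO range, any called higher or with another probe set above the filter that changed the opposite way by more than 0.2 (0 members), the MRPS18 relatives, and the 3 of each related list with the smallest adjusted p, and MYC, C1QBP and HES1; the remaining called members and those picked out by line were named after their values were seen. Alternatives changed the pseudocount, filter, scaling, probe sets, lines, covariates, block and trend.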

Additional observations from a re-analysis of the deposited data

Results flagged for a closer look

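The values of 11 of 108 sets of 10 lines had 1 line far from the rest by Dixon's test. In independent sets chance gives this in about 1 in 20. These sets are not independent, since the DMSO, CompE and change values of a gene share arrays. MRPL23 and MRPL24 were also named for their wide DMSO ranges, so their flags are not separate evidence. CCRF-CEM was high in 4. On the log2(signal + 16) scale its DMSO value of MRPL40 was 9.93 (signal 959, the next line 607) and of MRPS17 9.97 (989, next 597), and its CompE value of MRPL19 was 9.18 (564, next 246) and of MRPS30 10.34 (1284, next 646).

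KOPTK1 stood apart in 5. Its DMSO values were low for MRPL23 (8.29, signal 297 against 693 in the next line), MRPL24 (6.89, 103 against 276) and TUFM (9.95, 972 against 1431). Its change was high for MRPL23 (0.91, next -0.13) and MRPS18A (1.13, next 0.19). The ACTB 3' to 5' ratio was highest on the KOPTK1 arrays, and its part in these values was not tested.

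In DND41 the change of MRPS22 was -0.93, with the next line at -0.50. In CUTLL1 the CompE value of MRPL49 was 9.26 (signal 596, next 834).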

How the results depend on the processing

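The median change of the members was below 0 under every setting run, and 0 members were called higher under any. Against 19 members called lower, 8 were without the 3 lines with another medium label, 10 with the ACTB ratio as a covariate, 11 with no trend in eBayes, 0 with the 10th percentile of signal as a covariate (20 at an unadjusted limma p below 0.05) and 0 with no replicate block, which drops the pairing by line (16 unadjusted). Without 1 line at a time 6 to 25 were called, the lowest counts being those lacking HPB-ALL (6), DND41 (7), RPMI8402 (7), ALL-SIL (11) or PF382 (12). Over all genes 552 were called in the paired fit, 298 without those 3 lines, 318 with the ACTB ratio, 0 with the 10th percentile (1089 unadjusted), 0 with no replicate block (369 unadjusted) and 181 to 1031 without 1 line (HPB-ALL 181, RPMI8402 183, DND41 214, CUTLL1 316, MOLT3 346, PF382 355, KOPTK1 1031). Other pseudocounts, filters, scalings, probe set rules and a random replicate block gave 16 to 21 members. Under these settings the share of all genes called lower ran from 1.41% (no filter on low signals) to 5.01% (filter at the 60th percentile). With no trend in eBayes it was 2.11%, against 3.24% in the main fit. With median centring the median of the members moved to -0.62 in DND41, -0.42 in KOPTK1, -0.50 in MOLT3 and -0.30 in PF382, and to 0.0079 in P12-ICHIKAWA, above 0. With the mean of probe sets GADD45GIP1 was at 0.057. Among the genes named by rule and the remaining called members, 207 values lost the call, 15 gained it and 1 called value turned, that of GADD45GIP1. Outside that set MRPL17 was called in 4 settings, MRPL4 in 1 and MRPS2 in 1. Of the 49 members 8 changed sign under at least 1 setting, all of them not called (MRPL20, MRPL28, MRPL33, MRPL44, MRPL49, MRPS14, MRPS18A and MRPS18B), as did DAP3 and PTCD3. Beyond the settings' own construction (fewer lines, no pairs) the causes were not tested. Dim members such as MRPL44 and MRPL52 are poorly measured.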
